A study of Mus musculus with 28 samples.

Results

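The 9 genes described here, Drd1, Drd2, Adora2a, Ppp1r1b, Rgs9, Pde10a, Gnal, Adcy5 and Syndig1l, are known for their high expression in striatal spiny neurons and other dopamine-receptive neurons of the forebrain. They were chosen by name, with earlier results of these data known, and were looked up by gene symbol in the count tables of the mouse amygdala. Of the 9, 8 were listed in the tables of both sequencing batches and averaged 10 or more counts per mouse, as did 16266 genes in all. Gnal was listed in the second table alone and was therefore measured in the 17 mice of that batch.

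The samples were bilateral micropunches aimed at the basolateral and central amygdala of 28 adult female C57BL6/J mice, each housed singly with the same schedule of drinking tubes. The Water mice (n = 10) were never given alcohol, the Acute mice (n = 9) had a single access to 20% alcohol, and the Chronic mice (n = 9) could drink 20% alcohol on alternate days over a month. Of these, 4 Water, 4 Acute and 3 Chronic mice were sequenced in a first batch and 6, 5 and 6 in a second. A mouse is named below by its group and the number on its label.

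In the striatum, dopamine acts on spiny neurons of a direct pathway, which carry the D1 receptor, and of an indirect pathway, which carry the D2 receptor together with the adenosine receptor encoded by Adora2a. Both pathways share a signalling chain in which the G protein subunit encoded by Gnal drives the adenylyl cyclase encoded by Adcy5, cAMP acts through protein kinase A on DARPP-32, and phosphodiesterases break cAMP down. The amygdala borders the striatum, holds spiny GABAergic neurons of its own in the central nucleus and the intercalated cell masses, and receives dopamine fibres from the midbrain.

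Depth was even, with 20004380 to 22569562 counts per mouse. In the second batch the Chronic libraries (20135215 to 20890964 counts) were on the whole deeper than the Water libraries (20004380 to 20208978 counts), and the part of depth in the results was not tested. No 2 libraries of a group and batch held the same counts. Levels below are CPM, a gene's counts relative to its library's TMM-scaled total, and a called gene is one with an adjusted p under 0.05. Of all genes tested, 3 were called between Chronic and Water mice and 0 in the other comparisons.

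The promoters of the 2 dopamine receptors are shown because the levels of these receptors were compared across mice, and that of Rgs9 because it was the only one of the 7 windows found for these genes that held a TATAAA. The sequences are from RefSeq on the GRCm38.p6 build, 250 bases before to 50 bases after an annotated start, read along the gene. They are chr13:54055609-54055908 on the minus strand for Drd1, chr9:49340153-49340452 on the plus strand for Drd2 and chr11:109298132-109298431 on the minus strand for Rgs9. Capitals mark GGGCGG, the core of a GC box, on either strand, and TATAAA, the core of a TATA box, on either strand.
Drd1: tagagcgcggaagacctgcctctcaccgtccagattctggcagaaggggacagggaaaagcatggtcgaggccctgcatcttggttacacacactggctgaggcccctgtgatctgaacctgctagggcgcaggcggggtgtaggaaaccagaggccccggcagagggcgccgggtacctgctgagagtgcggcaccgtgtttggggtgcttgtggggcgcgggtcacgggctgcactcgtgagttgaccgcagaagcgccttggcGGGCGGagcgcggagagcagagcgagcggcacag
Drd2: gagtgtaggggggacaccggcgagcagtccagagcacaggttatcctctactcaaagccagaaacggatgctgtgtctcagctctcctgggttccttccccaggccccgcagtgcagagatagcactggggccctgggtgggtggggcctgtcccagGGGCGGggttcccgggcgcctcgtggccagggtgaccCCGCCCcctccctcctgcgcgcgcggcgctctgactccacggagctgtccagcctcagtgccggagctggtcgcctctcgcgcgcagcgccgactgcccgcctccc
Rgs9: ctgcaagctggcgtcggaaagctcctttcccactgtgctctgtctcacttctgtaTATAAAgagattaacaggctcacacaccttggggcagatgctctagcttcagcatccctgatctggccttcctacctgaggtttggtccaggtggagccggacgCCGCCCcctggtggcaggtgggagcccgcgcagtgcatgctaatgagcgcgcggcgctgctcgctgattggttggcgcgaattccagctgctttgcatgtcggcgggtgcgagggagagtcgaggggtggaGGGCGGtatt

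The set of RefSeq promoters used here gave 7 such windows for 5 members. Adora2a, Ppp1r1b, Gnal and Syndig1l had no entry in that set. All 7 windows held GGGCGG on at least 1 strand, against 35.6% of 32817 promoters of the same length, and 1 held TATAAA, against 13.6%. In Rgs9 the TATAAA lay 195 bases before the start. None of the 7 held TGACGTCA, the full cAMP response element, which 1.79% of promoters hold. Their GC content ranged from 56.7% to 79.0% (median of all promoters 52.7%) and their CpG count from 5 to 44 (median 7), the highest in both being Adcy5. A motif match here is a description of the letters in the window.

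All 9 genes were readily detected, with none at 0 in any mouse. Per kilobase of exon, the level was highest for Ppp1r1b, which encodes the protein phosphatase inhibitor DARPP-32, at 102.8 ± 31.3 CPM per kb (SD, n = 28). Adcy5, the adenylyl cyclase of spiny neurons, followed at 52.8 ± 10.4, and Gnal, the stimulatory G protein subunit Golf alpha, at 29.2 ± 5.32 (n = 17). Drd2, Adora2a and Pde10a lay close together at 17.6 ± 7.19, 16.7 ± 6.65 and 15.7 ± 5.67 CPM per kb.

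Below them came Drd1 at 13.2 ± 3.40, Syndig1l, which encodes a transmembrane relative of a synapse differentiation protein, at 9.29 ± 3.68, and Rgs9, which encodes a regulator that ends G protein signalling, at 7.66 ± 3.13 CPM per kb. Neighbours in this order kept it in every mouse for Ppp1r1b over Adcy5 (28 of 28), Adcy5 over Gnal and Gnal over Drd2 (17 of 17 each), and Drd1 over Syndig1l (28 of 28). Drd2 was above Adora2a in 20 of 28 mice and Adora2a above Pde10a in 17 of 28, so these 3 could not be ordered beyond their spread. Pde10a was above Drd1 in 23 of 28 mice, with overlapping spreads, and Syndig1l above Rgs9 in 27 of 28. Exons of Ppp1r1b, Gnal and Syndig1l overlap a gene on the opposite strand (1700003D09Rik, Mppe1 and Gm48573), and whether the counting used strand is not given in the sources used here.

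The levels of these genes differed widely between mice. Drd2 ranged from 10.4 CPM in Water 42 to 82.4 CPM in Water 40, which is 7.94-fold between 2 Water mice of the same batch. The highest and the lowest of all mice were Water mice of the first batch for 6 further genes. The highest was 6.40-fold above the lowest for Rgs9, 5.65-fold for Adora2a, 5.37-fold for Syndig1l, 4.29-fold for Pde10a and 3.33-fold for Ppp1r1b. The range was narrower for Drd1, at 2.84-fold between Water 40 and Water 42. Adcy5 differed by 2.36-fold between an Acute mouse of the second batch and Water 43 of the first, and by 2.09-fold with batch means removed. Gnal differed by 1.89-fold between an Acute and a Chronic mouse of the second batch.

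Within batch and group, the SD of log2 CPM was 0.74 for Drd2, 0.70 for Adora2a, 0.69 for Rgs9, 0.67 for Syndig1l, 0.56 for Pde10a, 0.49 for Ppp1r1b, 0.38 for Drd1 and 0.29 for Adcy5. The median over these 8 genes was 0.61, against 0.14 over all 16266 genes. For spread over all 16266 genes, the 8 stood between the percentile 78.34 (Adcy5, with 3523 genes above it) and the percentile 97.75 (Drd2), with Drd1 at 87.56. Among the 11723 genes averaging 100 or more counts the 8 stood between the percentile 95.88 (Adcy5) and the percentile 99.28 (Drd2). Gnal had an SD of 0.26 in the second batch. Drd2 and Adora2a, the receptors of the indirect pathway, had wider spreads than Drd1, the receptor of the direct pathway.

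**Figure D1:**
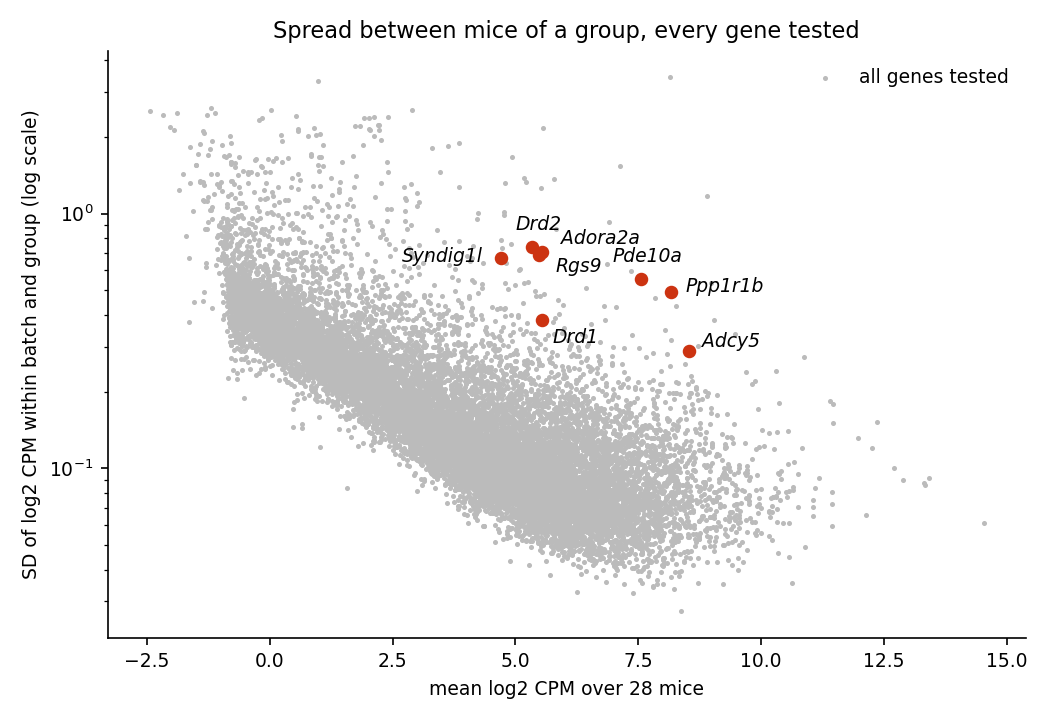
Each grey point is one of the 16266 genes tested, with its mean log2 CPM over 28 mice on the horizontal axis and the SD of its log2 CPM within batch and group on the vertical axis (log scale). The 8 red points lie near the top of the cloud at their level, from 0.29 for Adcy5 to 0.74 for Drd2.

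The spread was shared among the genes. With batch means removed, Water 40 had the highest value of all 28 mice for 8 of 8 genes, and the lowest value was that of Water 43 for 5 genes and of Water 42 for 3. All 8 genes lay above their batch mean in 14 mice and below it in 10, which left 4 mice with genes on both sides. The 14 were 6 Water, 7 Acute and 1 Chronic mice, and the 10 were 3 Water, 2 Acute and 5 Chronic mice. In Water 40 the median of the 8 genes was 1.995-fold the batch mean, while in Water 42 and Water 43 it was 0.477-fold and 0.423-fold.

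**Figure D2:**
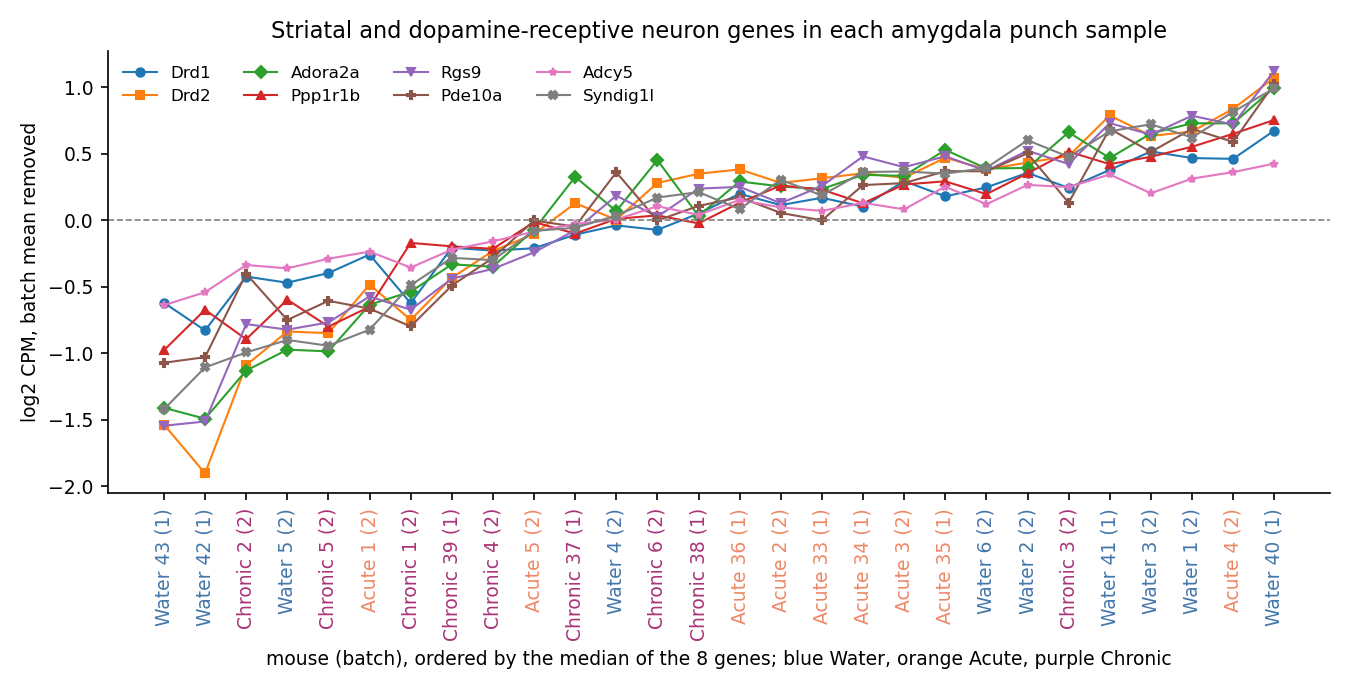
Log2 CPM with the batch mean removed (vertical axis) of 8 genes in each of 28 mice (horizontal axis, batch in brackets), ordered by the median of the 8 genes. The 8 lines climb together from Water 43 and Water 42 at the left to Water 40 at the right, with Drd1 and Adcy5 the flattest.

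Across the 28 mice, Pearson's r between any pair of the 8 genes, with batch means removed, was between 0.90 and 0.98 (median 0.96 over 28 pairs), and Spearman's rho was between 0.889 and 0.978. The permutation p within batches was at most 1.09e-05 for r and 1.16e-05 for rho after Benjamini-Hochberg adjustment over 36 pairs, with 1e-05 the smallest raw p that 100000 resamples can give. Without the 2 mice farthest from the median of the first gene of a pair, the lowest r was 0.889. Within batches, r was between 0.946 and 0.993 in the first and between 0.860 and 0.985 in the second. A single first component held 95.99% of the variance of the 8 genes.

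Drd1 thus moved with Drd2 and Adora2a across mice, although the receptors mark different pathways. Gnal, over the 17 mice of the second batch, had r between 0.790 and 0.934 with the other 8 genes (adjusted permutation p at most 0.00013), rho between 0.860 and 0.949, and a lowest r of 0.767 without 2 mice. In bulk samples such as these, fewer cells of a type and less RNA per cell cannot be told apart.

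Among genes averaging 100 or more counts, those with the closest pattern to the mean of the 8 standardized profiles included Gng7 (r = 0.984 over 28 mice), Pde1b (0.981), Inf2 (0.981), Nexn (0.977) and Sh3rf2 (0.976). The most opposite were Gng2 (r = -0.91), Dpp10 (-0.91) and Timp2 (-0.89). In all, 120 genes had r above 0.8 and 11 had r below -0.8. Gng7 encodes the G protein gamma subunit that partners Golf alpha, and Pde1b a calmodulin-dependent phosphodiesterase.

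Other genes of these cells and of neighbouring cells were described by lists. Because the 8 genes varied together across mice, their relations with a list, here and below, are not separate results. A count of relations that passed repeats nearly the same relation. The r of each of the 8 genes with the mean log2 CPM of a list was between 0.951 and 0.992 for 11 genes of spiny neurons of both pathways, between 0.889 and 0.963 for 3 of the indirect pathway (Penk, Gpr6 and Sp9) and between 0.784 and 0.914 for 5 of the direct pathway (Tac1, Pdyn, Isl1, Chrm4 and Ebf1). The rho of these 3 lists was between 0.765 and 0.984. All 24 of these relations had an adjusted permutation p of 3.08e-05 for r, and of at most 5.44e-05 for rho, over 117 relations computed. The lowest r was 0.705 within a batch and 0.680 without 2 mice, both in the direct list. Chrm4, the M4 muscarinic receptor, was the exception within the direct list, with r = -0.08 against the mean profile. Penk, the precursor of enkephalin, had r = 0.936 and Tac1, the precursor of substance P, 0.9195.

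The list named for cholinergic interneurons of the striatum moved with the 8 genes too. Its genes mark cholinergic neurons in general, and which of these cells they came from was not tested. Chat, Slc5a7, Slc18a3 and Lhx8 together gave r between 0.756 and 0.869 and rho between 0.682 and 0.792 (adjusted permutation p at most 5.44e-05 for r and 0.00026 for rho). Without 2 mice the lowest r was 0.632, and within batches r was between 0.752 and 0.874 in the first and between 0.769 and 0.862 in the second. Their summed level was low, from 3.32 to 36.6 CPM in Water, 6.85 to 53.1 in Acute and 4.999 to 47.0 in Chronic mice, and 0 of the 4 genes were at 0 in any mouse. Their part in the spread of the 8 genes was not tested.

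Central amygdala markers gave smaller values. The list of Prkcd, Crh, Nts, Tac2, Dlk1, Calcrl and Ezr had r between 0.147 and 0.402 with the 8 genes and rho between 0.044 and 0.230, and 0 of 8 relations passed (lowest adjusted permutation p 0.0568 for r and 0.316 for rho). Within batches r was between 0.246 and 0.423 in the first and between 0.068 and 0.389 in the second, and without 2 mice the lowest was -0.03. Within it, Crh, which encodes corticotropin releasing hormone, had r = 0.637 with the mean profile and Prkcd, the kinase that marks a class of central amygdala neurons, 0.046. The 7 genes summed to between 163.1 and 228.3 CPM in Water, 170.8 and 310.3 in Acute and 142.5 and 246.5 in Chronic mice, and none was at 0 in a mouse.

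The intercalated cell list (Foxp2, Tshz1, Oprm1 and Meis2) had r between 0.509 and 0.673 and rho between 0.506 and 0.609, and 8 of 8 relations passed (adjusted permutation p at most 0.0122 for r and 0.0134 for rho). The r was between 0.796 and 0.874 in the first batch and between 0.238 and 0.483 in the second, and the lowest without 2 mice was 0.375. Its members differed, with r = 0.881 for Meis2 and 0.779 for Foxp2, which spiny neurons of the striatum also express, but 0.064 for Tshz1. The list summed to between 213 and 374 CPM in Water, 261 and 424 in Acute and 254.1 and 375.5 in Chronic mice.

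Oligodendrocyte genes (Mog, Mag, Mobp, Cnp, Cldn11 and Mal) had r between 0.519 and 0.6205 and rho between 0.553 and 0.639 with the 8 genes, and 8 of 8 relations passed (adjusted permutation p at most 0.0161 for r and 0.00628 for rho), although without 2 mice the lowest r was 0.299. Within batches r was between 0.536 and 0.674 in the first and between 0.476 and 0.639 in the second. Their summed level ranged from 614.1 to 943.6 CPM in Water, 694.2 to 1421 in Acute and 664.8 to 1089 in Chronic mice. What part these cells had in the values was not tested.

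Pallial excitatory neuron genes, which mark the basolateral amygdala and cortex, had r between -0.36 and -0.27, genes of all neurons between -0.22 and -0.14 and thalamic genes between 0.028 and 0.1098. The rho was between -0.39 and -0.25, between -0.23 and -0.11 and between -0.20 and -0.07. In these 3 lists 0 of 24 relations passed the test (adjusted permutation p at least 0.120 for r and 0.0675 for rho). Thalamic genes had r between 0.290 and 0.409 in the first batch but between -0.47 and -0.33 in the second, while pallial genes had -0.50 to -0.41 and -0.20 to -0.09. Choroid plexus genes had r between -0.43 and -0.29, with 4 of 8 relations past the threshold for r (lowest adjusted permutation p 0.0193), and rho between -0.54 and -0.37, with 6 of 8 past it. Their r was between -0.55 and -0.40 in the first batch and between -0.48 and -0.28 in the second, and their summed level ran from 24.7 to 4018 CPM in Water, 14.7 to 3562 in Acute and 12.4 to 4302 in Chronic mice. Kcnj13 and Otx2 of that list were at 0 in at least 1 mouse.

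Genes of dopamine synthesis and transport had r between 0.369 and 0.542 and rho between 0.267 and 0.447, and 7 of 8 relations passed for r (adjusted permutation p between 0.0137 and 0.117) and 1 of 8 for rho. In the first batch r was 0.577 to 0.702, in the second 0.060 to 0.317, and without 2 mice the lowest was 0.070. Of the signalling genes, Ric8b, the chaperone of Golf alpha, had r = 0.908 with the mean profile, Prkar2b, a regulatory subunit of protein kinase A, 0.838 and Rgs7bp, an anchor of Rgs9, 0.727. Gnai1, an inhibitory G protein subunit, had r = -0.79, and Gnas, the more widely expressed stimulatory subunit, -0.29. The 15 signalling genes did not move as one, with r above 0 for 8 genes and below 0 for 7, a median of 0.035 and a range from -0.79 to 0.984 (Gng7). By contrast the median over 11 spiny neuron genes of both pathways was 0.912. The mean of the 15 had r between 0.809 and 0.887 with the 8 genes, rho between 0.783 and 0.899 and an adjusted permutation p of 3.08e-05 for r and 3.44e-05 for rho. Within batches its lowest r was 0.810, and without 2 mice 0.762.

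**Figure D3:**
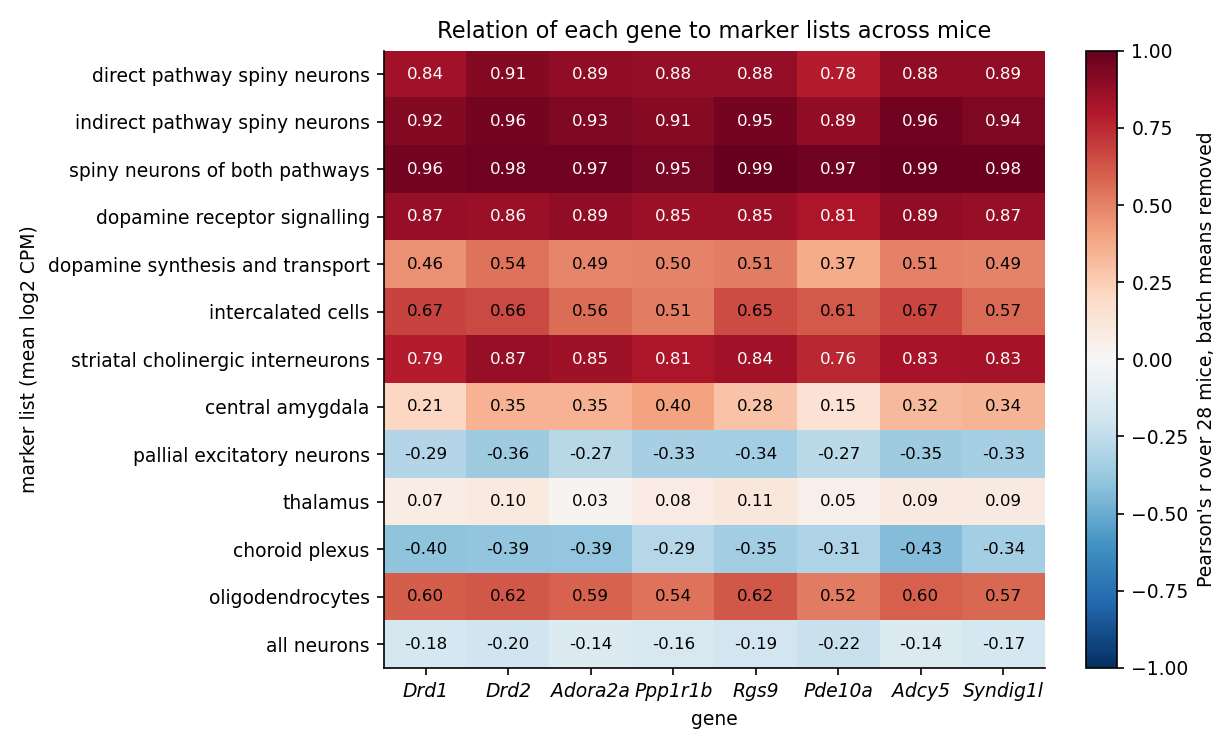
Pearson's r over 28 mice, with batch means removed, between each of 8 genes (columns) and the mean log2 CPM of 13 marker lists (rows). Values above 0.75 fill the rows of spiny neurons, dopamine receptor signalling and cholinergic interneurons, although 7 of the 15 signalling genes had r below 0 singly against the mean profile, and values of at most 0.402 the rows of central amygdala, thalamus, all neurons, pallial neurons and choroid plexus.

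Whether drinking altered these genes was asked by comparing the 3 groups. The dopamine D1 receptor gene Drd1 had 26.6, 56.4 and 75.5 CPM in the lowest, median and highest Water mouse, 38.2, 53.2 and 63.0 CPM in Acute mice and 29.6, 41.0 and 54.1 CPM in Chronic mice. The group means were 51.3 ± 16.7, 50.9 ± 7.83 and 41.0 ± 7.68 CPM (SD). All 3 groups overlapped, and the Water mice covered the whole range of the others.

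For Drd2, the D2 receptor gene, the lowest, median and highest mouse had 10.4, 54.6 and 82.4 CPM in Water, 29.4, 50.02 and 73.6 CPM in Acute and 19.3, 35.0 and 57.5 CPM in Chronic mice. The 4 Water mice of the first batch stood apart from each other, with 82.4 and 67.7 CPM in Water 40 and 41 but 10.4 and 13.4 CPM in Water 42 and 43. The adenosine receptor gene Adora2a had 16.5, 60.9 and 93.5 CPM in Water, 29.8, 57.2 and 77.0 CPM in Acute and 21.1, 37.1 and 73.5 CPM in Chronic mice. For both genes the Chronic median was the lowest and the groups overlapped.

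Ppp1r1b had 147.5, 343.9 and 490.3 CPM in the lowest, median and highest Water mouse, 180.7, 340.3 and 445.5 CPM in Acute and 152.6, 253.6 and 406.0 CPM in Chronic mice. Pde10a, the phosphodiesterase of spiny neurons that degrades cAMP and cGMP, had 90.02, 256.4 and 386.2 CPM in Water, 119.4, 213.5 and 284.9 CPM in Acute and 108.8, 155.6 and 207.5 CPM in Chronic mice. No Chronic mouse reached the Water median of Pde10a, but Water 42 and Water 43 lay below every Chronic mouse.

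Rgs9 had 14.6, 62.4 and 93.5 CPM in Water, 30.7, 51.2 and 75.3 CPM in Acute and 26.5, 35.4 and 61.3 CPM in Chronic mice. Adcy5 had 216.2, 429.1 and 492.2 CPM in Water, 336.3, 374.4 and 509.1 CPM in Acute and 288.8, 330.2 and 470.9 CPM in Chronic mice. Syndig1l had 9.87, 36.8 and 53.0 CPM in Water, 14.6, 32.1 and 45.7 CPM in Acute and 12.97, 21.9 and 36.1 CPM in Chronic mice. The order of the 3 medians, Water above Acute above Chronic, was the same for all 9 genes, and the groups overlapped in each. These medians are without removal of batch means. With batch means removed, the Acute mean of log2 CPM lay above the Water mean for each of the 8 genes but Pde10a (difference -0.01).

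Gnal, in the second batch, had 243.9, 360.3 and 390.1 CPM in the lowest, median and highest Water mouse (n = 6), 275.2, 315.4 and 439.8 CPM in Acute mice (n = 5) and 232.8, 280.7 and 406.5 CPM in Chronic mice (n = 6). Its groups overlapped as well, with the highest value in an Acute mouse.

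**Figure D4:**
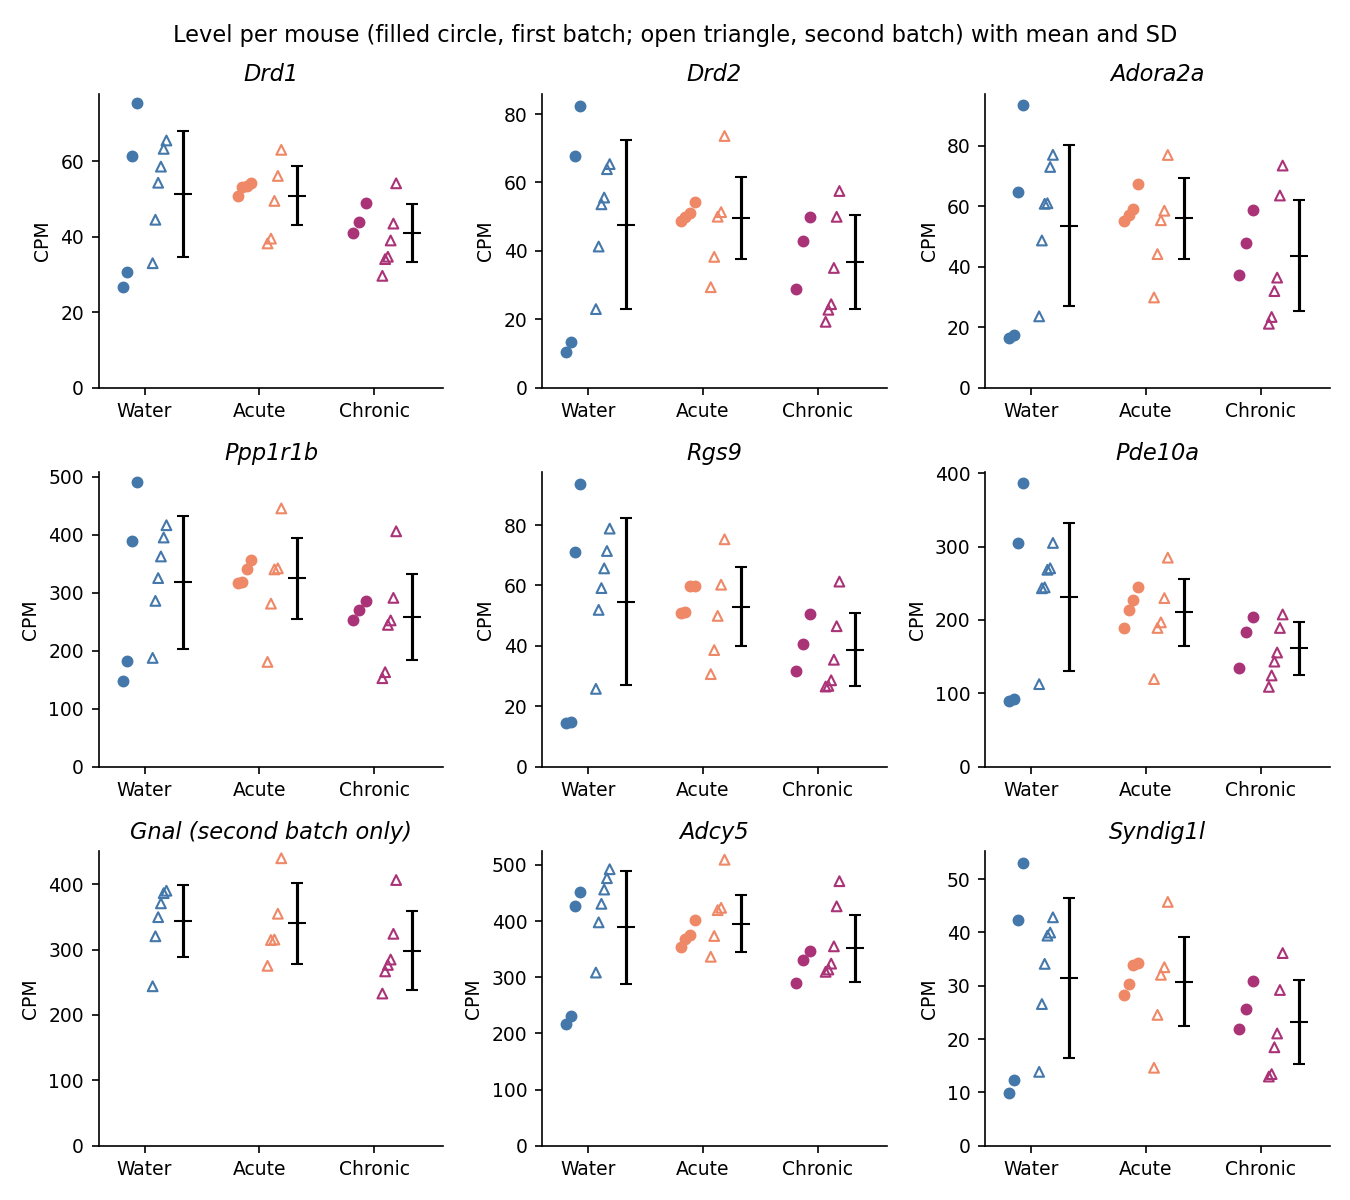
CPM of each gene (vertical axes, from 0) in every mouse of the Water, Acute and Chronic groups, with filled circles for the first batch, open triangles for the second, and bars for the mean and SD of the group. The Water group is the most spread in the 8 genes measured in both batches, with Water 42 and 43 at the bottom of that group and Water 40 among its highest. The groups overlap in all 9 panels.

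After a single access to alcohol no gene of the 9 passed the test against Water. Between Acute and Water mice, the log2 fold change of the 8 genes in edgeR was between -0.14 (Pde10a) and 0.06 (Adora2a), with a median of 0.007 against 0.001 over all genes. Of the 8 genes, 0 were called (adjusted p 0.875 to 0.987 in edgeR) and 0 had an unadjusted p under 0.05, which 0% and 9.52% of all genes did. Exact permutation p-values for the 8 genes were between 0.437 and 0.967. The approximate 95% interval of the difference was -0.49 to 0.61 for Drd2 and -0.32 to 0.29 for Drd1.

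For Acute against Water the 8 estimates were between -0.003 and 0.31 in the first batch and between -0.24 and -0.05 in the second, and the difference between batches was not called for any of the 8 (lowest p 0.366 before adjustment in edgeR). Gnal had a log2 fold change of -0.02 (SE 0.14, adjusted p = 0.997 in edgeR, exact permutation p = 0.924).

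After a month of intermittent access the estimates of all 8 genes lay below Water, and none passed the adjusted test. The median log2 fold change of the 8 was -0.35 in edgeR, against 0.002 over all genes. Pde10a had the largest, at -0.52 (SE 0.22, p = 0.0236, adjusted p = 0.383 in edgeR), with 8 of 9 Chronic mice below the Water mean of log2 CPM with batch means removed. Drd1 had -0.32 (SE 0.16, p = 0.0487, adjusted p = 0.474 in edgeR), also with 8 of 9 mice below the Water mean. These 2 of 8 genes had an unadjusted p under 0.05, as did 10.5% of all genes (5.65% with lower levels), and 0 of 8 were called, against 0.0184% of all genes. The count of 2 moved with single mice, to 0 without Water 40, to 5 without Water 43 to 4 without Water 42 or Chronic 3 and to 3 without Water 5, and it was 1 in 18 of the 28 fits that left out a mouse.

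The other estimates for Chronic against Water were -0.50 for Rgs9 (SE 0.27), -0.43 for Syndig1l (SE 0.26), -0.37 for Drd2 (SE 0.29), -0.30 for Ppp1r1b (SE 0.20), -0.29 for Adora2a (SE 0.28) and -0.15 for Adcy5 (SE 0.12), with adjusted p between 0.520 and 0.746 in edgeR. For these genes 8 of 9 Chronic mice lay below the Water mean for Ppp1r1b, 7 for Rgs9, 6 for Adcy5 and Syndig1l and 5 for Drd2 and Adora2a. Exact permutation p-values of the 8 genes on log2 CPM with batch means removed were between 0.186 (Pde10a) and 0.617 (Adora2a). The estimates were nearer 0 in the first batch (-0.33 to -0.01) than in the second (-0.65 to -0.22), without a called difference between batches (lowest p 0.342 before adjustment). In the second batch alone 3 of 8 genes had an unadjusted p under 0.05, as did 13.6% of all genes, and their lowest adjusted p in edgeR was 0.230. Gnal had -0.20 (SE 0.13, adjusted p = 0.521 in edgeR, exact permutation p = 0.204), in a fit that called 0.0243% of genes.

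Chronic mice, compared with Acute mice, again had lower estimates for all 8 genes, from -0.46 (Rgs9) to -0.20 (Adcy5) with a median of -0.37, against -0.001 over all genes. In edgeR 0 of 8 were called (adjusted p = 0.998), against 0% of all genes, and 0 of 8 had an unadjusted p under 0.05, against 4.44%. This count rose to 3 without Acute 1, 2 without Chronic 3 and 1 without Acute 5 or Water 42. The exact permutation test gave a p under 0.05 for 5 of 8 genes, namely Drd1 (p = 0.0150), Rgs9 (0.0251), Pde10a (0.0293), Drd2 (0.0401) and Adcy5 (0.0424), as it did for 5.37% of all genes. The remaining p-values reached 0.0935, 27 such tests were run, and after adjustment over all genes tested 0 genes passed the exact permutation test. Since the 8 genes varied together across mice, these 5 are not separate results.

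The 2 tests use different mice for the spread, since edgeR takes the spread from all 3 groups, of which the Water group was the widest, while the permutation test uses the mice compared. With the model fitted to the groups compared alone, 5 of 8 genes had an unadjusted p under 0.05 in Chronic against Acute, as did 4.57% of all genes, and 0 were called. The estimates were alike in both batches, from -0.44 to -0.22 in the first and from -0.48 to -0.17 in the second. For Gnal the value was -0.19 (SE 0.14, adjusted p = 0.9998 in edgeR, exact permutation p = 0.266). Both comparisons of Chronic mice use the same Chronic mice, and both comparisons with Water the same Water mice.

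**Figure D5:**
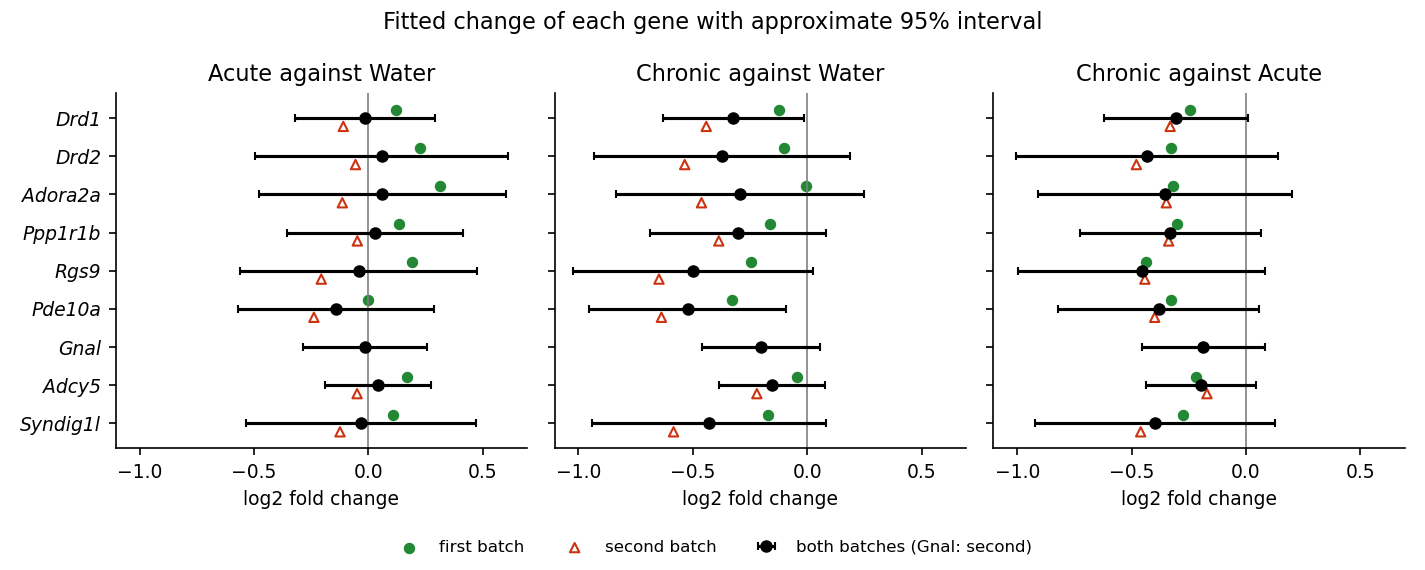
Log2 fold change of each gene (horizontal axes) in the 3 comparisons, with black points and bars for the edgeR fit over both batches and its approximate 95% interval, green circles for the first batch and open red triangles for the second. The points scatter around 0 for Acute against Water and lie below 0 for both comparisons of Chronic mice, where most intervals reach past 0.

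The Water mice at both ends weighed on these values. Leaving out Water 40, 42 and 43 together, a choice made after seeing the values of these genes, moved the estimates for Chronic against Water to between -0.68 and -0.26, with 7 of 8 genes at an unadjusted p under 0.05, as were 14% of all genes, and a lowest adjusted p of 0.0997 in edgeR. The same choice moved those for Acute against Water to between -0.30 and -0.07, with adjusted p of at least 0.631 in edgeR. Because the mice were picked by these genes, the p-values without them are a description. Of the 8 genes, 0 were called in any comparison, while over all genes 17 (0.105%) were called between Chronic and Water mice in this fit, against 3 with all mice.

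Balance between the genes within a mouse was examined last, for 6 pairs of genes chosen after their values were seen. The log2 difference between Drd1 and Drd2 had an SD of 0.39 across mice and that between Adora2a and Drd2 one of 0.16. Singly, the SD was 0.39 for Drd1, 0.75 for Drd2 and 0.70 for Adora2a. Drd1 and Drd2 had r = 0.95 across mice, so their unequal SDs enter the first value. None of 18 comparisons between groups passed the exact permutation test after adjustment over the 18. The smallest p was that of Pde10a relative to Drd2, with a log2 difference of -0.30 between Acute and Water mice (exact permutation p = 0.00730, adjusted p = 0.131). In Water 42 and Water 43, Pde10a lay less far below its batch mean (-1.03 and -1.07 in log2 CPM) than Drd2 (-1.90 and -1.54). The part of these mice in the difference was not tested. For Drd1 relative to Drd2 the group differences were between -0.24 and 0.19, with adjusted permutation p of at least 0.629.

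In the lists of related genes, 0 genes were called in any comparison in edgeR. Of 15 signalling genes, 2 had lower levels and 2 higher levels at an unadjusted p under 0.05 in Chronic against Water, as did 5.65% and 4.81% of all genes. The smallest was that of Rgs7bp (log2 fold change -0.20, SE 0.062, p = 0.00301, adjusted p = 0.241 in edgeR), which anchors Rgs9 at the membrane, with 318.2 ± 39.9 CPM in Water and 276.4 ± 17.3 CPM in Chronic mice. Prkaca, the catalytic subunit of protein kinase A, had higher levels, at 0.08 (SE 0.034, adjusted p = 0.367 in edgeR). Median log2 fold changes for Chronic against Water were -0.22 for 11 spiny neuron genes of both pathways, with 2 lower at an unadjusted p under 0.05 (5.65% of all genes), -0.11 for 3 of the indirect and -0.12 for 5 of the direct pathway.

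The peptide genes Penk, Pdyn and Tac1 were not called in any comparison. Between Acute and Water mice the log2 fold change was 0.28 for Penk (SE 0.21), 0.31 for Pdyn, the precursor of dynorphin (SE 0.20), and 0.13 for Tac1 (SE 0.25), each above the median of 0.007 over the 8 genes (adjusted p 0.642 to 0.907 in edgeR). For Chronic against Acute the log2 fold change was -0.40 for Penk (SE 0.22, adjusted p = 0.998 in edgeR) and -0.38 for Pdyn (SE 0.21, adjusted p = 0.998), and for Tac1 it was -0.25 (SE 0.26, adjusted p = 0.9995). Against Water, Chronic mice had -0.11 for Penk (SE 0.21), -0.07 for Pdyn (SE 0.20) and -0.12 for Tac1 (SE 0.25), each smaller in size than its SE and nearer 0 than the median of -0.35 over the 8 genes. Of the other dopamine receptors, Drd3 and Drd4 stood under the count minimum, with 3 to 20 and 0 to 6 counts per mouse, as did Slc6a3, the dopamine transporter, with 3 to 25 counts.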

How the data were processed

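RNA of amygdala micropunches from 28 female mice was sequenced as paired-end reads. The authors quantified reads with Salmon 0.14.1 after FastQC 0.11.8, summarized them by gene with tximport (GENCODE M21, GRCm38), and deposited whole-number counts per gene and mouse in a table per batch, before batch adjustment. Depth was 20004380 to 22569562 counts per mouse. No column was left out.

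Tables were joined on the gene identifier, and a gene was kept where its mean was 10 counts or more. Groups were compared in R 4.3.3 with edgeR 4.0.16 (quasi-likelihood test, TMM, batch and group as terms, all 3 groups, Benjamini-Hochberg over all genes, threshold 0.05). Gnal was fitted in the second table (17 mice, 16435 genes). Log2 CPM used a prior count of 2. The exact permutation tests are 2-sided, permute groups within batches and test the difference of mean log2 CPM with batch means removed, which can differ in size and sign from edgeR's fold change. They were first to be adjusted over members and comparisons. The raw p is given instead with the number of tests, and adjustment was made over all genes. The smallest p was 3.09e-05 with Water and 6.18e-05 for Chronic against Acute. Intervals cover the fitted SE. Nothing says that mice shared a litter, and p-values measure the spread between these mice. The tests were tested on simulated data. For edgeR these had the same spread in every gene and no batch effect, which is not the setting of the genes described here.

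The members and lists were chosen with earlier results of these data known. Named were all members, from each list the gene with the highest CPM, those with the smallest p against Water and any called, and the 6 most and 3 least similar genes over the mice. A few genes are not reported here and were left out of the lists. Other list genes were named after their values were seen. Some list genes are also expressed in other cells listed here. Alternatives were RLE and upper quartile scaling, other count filters (none, 100), DESeq2 1.42.0, limma-voom (limma 3.58.1), ComBat-seq (sva 3.50.0) with DESeq2, each batch, only the groups compared, a replicate block, a prior count of 0.5 and leaving out each mouse.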

Additional observations from a re-analysis of the deposited data

Results flagged for a closer look

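Of 27 sets of values, 1 for each gene and group, 1 held a mouse far from the others of its group. In the Acute mice the lowest value of Pde10a, -0.66 in log2 CPM with the batch mean removed, belonged to Acute 1 of the second batch, and its gap to the next mouse took up more of the range than chance usually gives. Chance alone flags about 1 in 20 such groups.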

How the results depend on the processing

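No gene of the 9 was called in any comparison under any alternative run, while the number called over all genes differed between them. For Acute and Chronic against Water it was 9 and 38 with DESeq2 and 30 and 88 with ComBat-seq and DESeq2, against 0 and 3 in edgeR. For Chronic against Water the 3 became 2 to 6 with 1 mouse left out (6 without Water 3). Signs for Acute against Water, where no value passed a test, turned in the first batch alone for Drd1 (0.12), Rgs9 (0.19) and Syndig1l (0.11), and in the second alone for Drd2 (-0.056), Adora2a (-0.11), Ppp1r1b (-0.048) and Adcy5 (-0.049). They also turned with limma-voom for Ppp1r1b (-0.030), and without Water 40, 42 and 43, a choice made after seeing the data, for Drd2 (-0.15), Adora2a (-0.12), Ppp1r1b (-0.088) and Adcy5 (-0.072). The cause was not tested. With the replicate block the value was 0.0045 for Gnal and 0.0090 for Syndig1l, and 0 genes of the 9 were called. Mice with the same number did not deviate together (correlations of 16 pairs from -0.35 to 0.34, median -0.008). Without those 3 Water mice the median spread was 0.44 in place of 0.61. Leaving out 1 mouse at a time gave a median spread of 0.548 to 0.626, a median correlation of 0.955 to 0.964 and 0 called. Its log2 fold changes for Acute against Water were -0.10 to 0.071 for Drd1, -0.076 to 0.21 for Drd2, -0.062 to 0.21 for Adora2a, -0.064 to 0.13 for Ppp1r1b, -0.17 to 0.11 for Rgs9, -0.12 to 0.052 for Gnal, -0.024 to 0.10 for Adcy5 and -0.15 to 0.10 for Syndig1l. For Chronic against Water the value of Pde10a kept an unadjusted p under 0.05 in 27 of 28 such fits, all but 1, and that of Drd1 in 9 of 28. The other comparisons kept their direction. The 9 genes had between 217 and 10613 counts per mouse, and the part of depth in their values was not tested.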
